A study of Mus musculus with 9 samples.

Results

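The genes described here make the major histocompatibility complex (MHC) class I molecule and load it with peptide: H2-K1, H2-D1, B2m, Tap1, Tap2 and Tapbp, in mouse Reissner's membrane. They were taken by name, and every probe set annotated to 1 of them alone was followed, which gave 22 of the 45101 probe sets on the array for 6 of its 18193 named genes. Of these 22 probe sets, 13 had a signal of 200 or more on at least 3 of the 9 arrays and were tested, and 9 did not and were not tested. A further 3 probe sets carry the symbol of a heavy chain together with another symbol and were kept apart.

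The class I molecule is a membrane-bound heavy chain, encoded in the mouse by H2-K1 and H2-D1 among others, held together with the light chain beta-2-microglobulin, the product of B2m. Peptides cut by the proteasome are pumped into the endoplasmic reticulum by a transporter made of the Tap1 and Tap2 proteins, and tapasin, the product of Tapbp, bridges that transporter and the empty heavy chain until a peptide is bound. Nearly all nucleated cells carry class I molecules, and interferons and NF-kB activity are known to raise the transcription of these genes, whereas glucocorticoids are known to restrain many inflammatory genes.

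Reissner's membrane is the thin sheet of epithelial and mesothelial cells that separates the endolymph of the cochlear duct from perilymph. The membrane was dissected by hand from mouse cochleae and either extracted at once (fresh, 0 h), kept as an explant for 24 h without added steroid, or kept for 24 h with dexamethasone, a synthetic glucocorticoid, at 100 nM. Each group has 3 arrays, lettered A to C. The labels give no strain, age or genetic alteration, and describe the explants as native tissue that does not proliferate. Dissected pieces were pooled and 3 chips were hybridized for each biological sample, so the p-values cover differences among chips, and these could be purely technical. The protocol text of dexamethasone arrays B and C writes the dose in mM, while array A and the series' design give nM. Class I heavy chains differ between mouse strains in sequence, and which strains' sequences the probes match was not tested.

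Array signals are on a linear scale that the authors set to a trimmed mean of 500.0 on each array. Log2 changes are differences of log2(signal + 32) with the standard error, tested with limma over 18913 probe sets and adjusted by Benjamini-Hochberg, with a call at an adjusted p under 0.05. A signal of 200 serves as a working floor, since no detection calls were used. Probe sets differ in their probes, so no level of one gene is set against that of another.

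The groups differed in the signals of cell type markers and in 3′ to 5′ ratios as well as in treatment. Summed signals of 8 neuronal markers ran from 24288 to 25376 in fresh membrane, 169 to 228 after 24 h and 228 to 321 with dexamethasone, and those of 6 spiral ligament and limbus fibrocyte markers, among them Coch, Otos and Car3, from 63039 to 64770, 2187 to 2430 and 1807 to 2012. Summed signals of 9 epithelial markers (Krt8, Krt18 and Cdh1 the brightest) ran from 46632 to 48425, 80991 to 83303 and 92176 to 97003. At 24 h 7 of the 9 were higher and Lrp2 lower (36.0% and 40.7% over all genes). Sums for 11 mesothelial and fibroblast markers (Dcn, Col1a2 and Pdgfra the brightest) ran from 34527 to 35957, 16527 to 18272 and 16495 to 17456. Of 9 tested, 6 were lower and 2 higher at 24 h (40.7% and 36.0% over all genes). Among the 11, the mesothelial markers Upk3b and Wt1 were under 200 on all 9 arrays, and Msln averaged 45.1, 1203 and 941. The ratio of 3′ to 5′ probe sets for Gapdh was 6.91 to 7.53 in fresh membrane, 3.46 to 3.88 after 24 h and 5.02 to 5.47 with dexamethasone. For Actb it was 3.97 to 4.26, 1.86 to 1.96 and 1.79 to 1.96, so the explant groups differed for Gapdh and not for Actb. For the transferrin receptor it was 3.02 to 13.9, 1.03 to 2.78 and 2.24 to 5.02, and the dexamethasone range overlapped both others. In such tissue a smaller share of a cell type and less RNA per cell cannot be told apart. Of 10 glucocorticoid receptor targets, 9 rose with dexamethasone (22.3% over all genes; 7 under quantile normalization or median centring and 5 under control scaling, which called Mt1 and Mt2 lower), among them Zbtb16 (log2 change 3.22, adjusted p 2.93e-11), and Sgk1 fell by 0.15 (adjusted p 0.028).

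Culture for 24 h was accompanied by a rise of both heavy chains, of B2m, of Tapbp and, to a smaller extent, of Tap1. By the probe set with the highest signal of each gene, the signals of the heavy chains, of B2m and of Tapbp were between 1.71 and 2.33 times those of fresh membrane, the Tap1 signal was 1.31 times as high, and the Tap2 signal passed the test under other scalings only. With dexamethasone, H2-K1, H2-D1 and Tapbp fell below the untreated explants, Tap1 fell too but lost the call in 7 of 16 alternatives, and the probe set with the highest B2m signal did not pass the test. By these probe sets, 77.7% of the 24 h rise in signal was present with dexamethasone for H2-K1, 53.7% for H2-D1, 55.5% for Tapbp, 113.0% for B2m and 17.1% for Tap1, and 32.9% of the small Tap2 difference. This share varied between probe sets of a gene, from 32.7% to 77.7% for H2-K1 and from 52.0% to 69.3% for H2-D1, and was 84.3% for the second B2m set. All shares are on the authors' scale. After quantile normalization, median centring and control scaling, the brightest B2m set with dexamethasone differed from 24 h by -0.08, -0.08 and -0.42 (log2). Of these only the last was called. Under control scaling, Tap1 and Tap2 with dexamethasone lay below fresh membrane (-0.07 and -0.09, neither called). The comparisons share the untreated 24 h arrays, so the 24 h rise and the dexamethasone fall are not independent of each other.

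**Figure D1:**
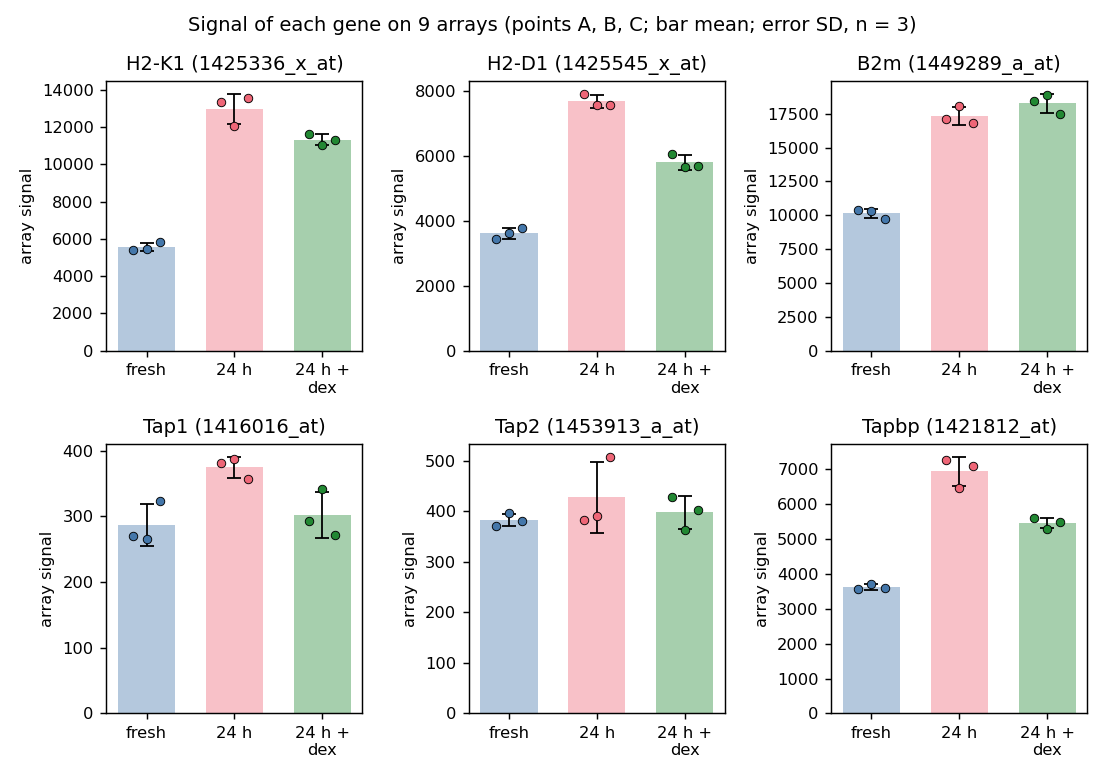
Array signal (linear scale, y axes starting at 0) of the probe set with the highest mean signal of each of the 6 genes, in fresh membrane, after 24 h and after 24 h with dexamethasone. Points are arrays A, B and C, bars the mean and error bars the SD (n = 3). The 24 h bars stand highest for 5 genes and the dexamethasone bar stands highest for B2m, and the arrays of the 3 groups overlap for Tap2.

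The promoters of H2-K1, H2-D1 and B2m are shown because these genes rose together in culture and, by their brightest probe sets, differed in their values with dexamethasone. Tapbp rose in culture as well, and its promoter is described below but not printed. Each stretch is the 250 bases before an annotated start of transcription in RefSeq annotation of GRCm38.p6, written 5′ to 3′ on the strand of the gene. It lies at chr17:34000348-34000597 on the minus strand for H2-K1 (1 of 2 windows listed for that gene), chr17:35262844-35263093 on the plus strand for H2-D1 and chr2:122147437-122147686 on the plus strand for B2m. The H2-K1 stretch lies inside the interval annotated to that gene (chr17:33996012-34000619). Positions in H2-K1 and H2-D1 are therefore counted from starts that do not correspond, and their offset is no difference between the promoters. Capitals mark matches to a kappa B site, to an interferon-stimulated response element (ISRE) core, to the letters TGACG or TGACGC and to the CCAAT box, on either strand.
H2-K1: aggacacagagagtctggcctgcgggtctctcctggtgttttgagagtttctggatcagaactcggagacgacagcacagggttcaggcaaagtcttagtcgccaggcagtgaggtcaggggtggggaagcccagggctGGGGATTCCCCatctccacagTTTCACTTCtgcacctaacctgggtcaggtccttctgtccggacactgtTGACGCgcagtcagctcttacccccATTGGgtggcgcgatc
H2-D1: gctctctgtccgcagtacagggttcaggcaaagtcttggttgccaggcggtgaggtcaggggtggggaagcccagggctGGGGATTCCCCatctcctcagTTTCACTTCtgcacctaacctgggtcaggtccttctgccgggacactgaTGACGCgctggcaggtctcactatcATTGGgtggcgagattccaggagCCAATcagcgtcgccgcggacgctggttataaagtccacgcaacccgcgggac
B2m: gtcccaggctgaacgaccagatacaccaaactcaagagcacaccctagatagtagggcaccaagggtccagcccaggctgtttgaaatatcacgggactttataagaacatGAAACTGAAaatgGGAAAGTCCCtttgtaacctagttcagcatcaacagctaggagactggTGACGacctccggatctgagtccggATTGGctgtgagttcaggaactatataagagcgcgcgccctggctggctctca

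The 3 promoters each hold a kappa B match next to an ISRE-like match, upstream of a TGACG core and a CCAAT box. In a local alignment the H2-K1 and H2-D1 stretches were identical at 166 of 188 aligned columns (88.3%), whereas every other pair among the 5 promoters found, Tap1 and Tapbp included, lay between 49.0% and 55.9%. Both heavy chain promoters carry GGGATTCCC, at -110 to -102 in H2-K1 and -170 to -162 in H2-D1. These letters were found in 0.353% of 32851 promoter windows of 300 bases (250 before and 50 after a start). GGGATTCCC was sought as the known kappa B site of class I genes, so this match was likely in advance. This match overlaps the wider kappa B consensus, which 8.46% of windows hold and which in B2m spans -126 to -117. The ISRE core GAAANNGAA lies at -139 to -131 in B2m (8.56% of windows). Its other spacing, GAANNGAAA, lies at -90 to -82 in H2-K1 and -150 to -142 in H2-D1 (7.52% of windows), and was added after the sequences had been seen. The core TGACGC, present in 7.40% of windows, begins at -41 in H2-K1 and -101 in H2-D1, and B2m has the shorter TGACG (20.8%) at -78 and at 45.

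Tap1 and Tapbp have no match to the kappa B consensus or to either ISRE spacing in their windows. Each has the Sp1 letters GGGCGG (35.7% of windows) and a CCAAT box (37.4%), and Tap1 also has TGACG at -86. AGAACA, the core of a glucocorticoid response element, lies at -146 to -141 in B2m and at 24 to 29 in Tap1 (19.0% of windows). The interferon-gamma site TTCNNNGAA (8.30% of windows) was found in none of the 5 windows. A match is a description of letters, and none of these sites was measured.

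**Figure D2:**
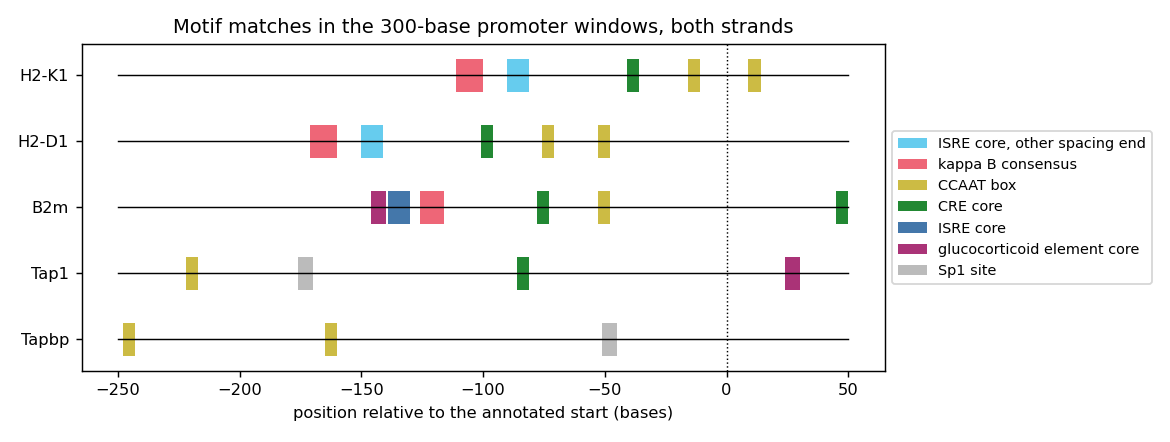
Matches to the motifs in the promoter windows of 5 genes, by distance in bases from an annotated start (dotted line) and with both strands pooled. The kappa B and ISRE-like matches of H2-K1, H2-D1 and B2m lie side by side between -171 and -82.

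H2-K1 encodes 1 of the classical heavy chains and lies at chr17:33996012-34000619 (GRCm38.p6). The probe set with its highest signal, 1425336_x_at, read 5412, 5444 and 5819.8 on fresh arrays A to C, 13325, 12038 and 13537 after 24 h, and 11624, 11031 and 11289 with dexamethasone. All 3 explant arrays of either kind lay above all fresh arrays, and the dexamethasone arrays lay below the untreated 24 h arrays. The 24 h difference was 1.22 ± 0.053 (log2, SE, adjusted p 5.11e-10), the difference of dexamethasone from 24 h was -0.19 ± 0.053 (adjusted p 0.00835), and that of dexamethasone from fresh was 1.02 ± 0.053 (adjusted p 2.11e-09).

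The other 3 H2-K1 probe sets rose at 24 h as well, by different amounts. Probe set 1427746_x_at read 413, 377 and 411 in fresh membrane, 2329, 2103 and 2535 after 24 h and 928, 1236 and 922 with dexamethasone. This was the widest change among the tested probe sets of the 6 genes, with a log2 change of 2.44 ± 0.11 at 24 h (adjusted p 4.65e-10) and -1.16 ± 0.11 with dexamethasone (adjusted p 2.57e-06). Probe set 1451931_x_at went from 2827 ± 82.3 to 6544 ± 299 and 4955 ± 66.7 (SD, n = 3), with a log2 change of -0.40 ± 0.047 with dexamethasone (adjusted p 2.11e-05). Probe set 1450534_x_at averaged 72.1 ± 18.8, 223 ± 6.8 and 187 ± 36.3 (SD, n = 3). It was under 200 on all fresh arrays, so its rise is given as at least 1.12-fold, and its difference with dexamethasone of -0.23 ± 0.16 missed the threshold (adjusted p 0.232).

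All 4 H2-K1 probe sets end in x_at, a suffix that Affymetrix gives to sets with probes that may also bind other transcripts. A probe set annotated to H2-K1 and H2-D1 together, 1424948_x_at, read 410, 439 and 429 in fresh membrane, 1898, 2796 and 2073 after 24 h, and 1671, 1338 and 1219.5 with dexamethasone. Its log2 change of 2.30 ± 0.13 at 24 h lay nearest to that of 1427746_x_at among the H2-K1 sets, and its change of -0.66 ± 0.13 with dexamethasone (adjusted p 0.00117) lay between those of 1427746_x_at and 1451931_x_at. Which transcripts these probes bind was not tested.

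H2-D1, at chr17:35263094-35267497, encodes the other classical heavy chain on this list. Its brightest probe set, 1425545_x_at, read 3447, 3618 and 3774 on the fresh arrays, 7898, 7553 and 7567 after 24 h, and 6057, 5658 and 5665 with dexamethasone. The 3 groups did not overlap. The 24 h difference was 1.08 ± 0.049 (log2, SE, adjusted p 7.45e-10), dexamethasone differed from 24 h by -0.40 ± 0.049 (adjusted p 2.64e-05) and from fresh by 0.68 ± 0.049 (adjusted p 5.03e-08).

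Probe sets 1451784_x_at and 1451683_x_at followed the same order of groups. The first averaged 3282 ± 58.8, 7339 ± 246 and 5392 ± 191, and the second 590.5 ± 36.4, 1876 ± 169 and 1481 ± 29.1 (SD, n = 3). Their log2 changes were 1.15 ± 0.046 and 1.61 ± 0.072 at 24 h (adjusted p 2.08e-10 and 6.58e-10), and -0.44 ± 0.046 and -0.33 ± 0.072 with dexamethasone (adjusted p 6.96e-06 and 0.00214).

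One tested H2-D1 probe set, 1426324_at, has no x_at or s_at suffix, and its signal was low. It read 123, 164 and 168 in fresh membrane, 267, 284 and 319 after 24 h, and 212, 223 and 256 with dexamethasone, with no overlap between groups. The rise was at least 1.45-fold at 24 h (log2 change 0.81 ± 0.13, adjusted p 7.75e-05) and at least 1.15-fold in dexamethasone over fresh (0.52 ± 0.13, adjusted p 0.00251). The dexamethasone difference from 24 h, -0.30 ± 0.13, missed the threshold (adjusted p 0.0706). The remaining 5 H2-D1 probe sets reached at most 127.9 on any array and were not tested.

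B2m encodes the light chain shared by all class I molecules and lies on another chromosome, at chr2:122147687-122153082. Probe set 1449289_a_at read 10367, 10292 and 9748 in fresh membrane, 17092, 18054 and 16834 after 24 h, and 18436, 18855 and 17495 with dexamethasone. Both explant groups lay above fresh membrane on every array and overlapped each other. The log2 difference was 0.77 ± 0.048 at 24 h (adjusted p 1.20e-08) and 0.85 ± 0.048 for dexamethasone over fresh (adjusted p 4.35e-09), and the difference of 0.076 ± 0.048 between dexamethasone and 24 h missed the threshold (adjusted p 0.200).

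The second B2m probe set, 1452428_a_at, read 7145, 7181 and 8089, then 14104, 13249 and 13472, then 13228, 12430.2 and 12270.3 in the same order. It rose by 0.86 ± 0.056 at 24 h (adjusted p 1.77e-08) and differed by -0.11 ± 0.056 with dexamethasone (adjusted p 0.126), where the arrays of the groups did not overlap. The sign of the B2m difference with dexamethasone therefore depends on the probe set. It also depends on the scaling: the first probe set gave -0.08 after quantile normalization (adjusted p 0.345) and -0.42 when arrays were scaled to their hybridization controls (adjusted p 4.5e-05), a scaling that moved the median of all tested probe sets by -0.469.

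Tap1, at chr17:34187556-34197225, encodes 1 of the 2 transporter chains. Probe set 1416016_at read 271, 266 and 324 in fresh membrane, 381, 388 and 357 after 24 h, and 293, 341 and 272 with dexamethasone. The 24 h arrays lay above those of both other groups, which overlapped. The log2 change was 0.36 ± 0.11 at 24 h (adjusted p 0.00915), -0.29 ± 0.11 with dexamethasone (adjusted p 0.0381) and 0.07 ± 0.11 for dexamethasone against fresh (adjusted p 0.588). The call with dexamethasone was lost without 24 h array A, B or C (adjusted p 0.0908, 0.101 and 0.05) and without dexamethasone array A or C (0.0951 and 0.136), and with the array letter as a replicate block (0.0557). The other 3 Tap1 probe sets reached at most 52.9 and were not tested.

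Tap2, the partner chain at chr17:34204479-34216321, has 1 probe set, 1453913_a_at, which read 372, 396 and 380.4 in fresh membrane, 383, 391 and 508 after 24 h, and 428, 362 and 402 with dexamethasone. The groups overlapped, and 24 h array C stood above the other 8 arrays. None of the 3 differences passed the test, with 0.14 ± 0.11 at 24 h (adjusted p 0.268), -0.09 ± 0.11 for dexamethasone against 24 h (adjusted p 0.513) and 0.05 ± 0.11 for dexamethasone against fresh (adjusted p 0.702). The 24 h difference passed it under each of the 3 other scalings, at 0.29 after quantile normalization (adjusted p 0.0257), 0.45 after control scaling (adjusted p 0.00272) and 0.55 after median centring (adjusted p 0.000231). Those scalings moved the median of all tested probe sets by 0.0633, 0.323 and 0.42.

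Tapbp, at chr17:33919478-33929290, encodes tapasin, the chaperone that holds empty heavy chains at the transporter. Probe set 1421812_at read 3573, 3712 and 3595 in fresh membrane, 7267, 6465 and 7106 after 24 h, and 5599, 5302 and 5504 with dexamethasone. The 3 groups did not overlap. Its log2 change was 0.93 ± 0.051 at 24 h (adjusted p 4.11e-09), -0.34 ± 0.051 with dexamethasone (adjusted p 0.000132) and 0.59 ± 0.051 for dexamethasone against fresh (adjusted p 2.83e-07). A second Tapbp probe set, 1450378_at, was not tested and read 112, 170.4 and 84.9, then 257, 238 and 193, then 139, 128 and 174.

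**Figure D3:**
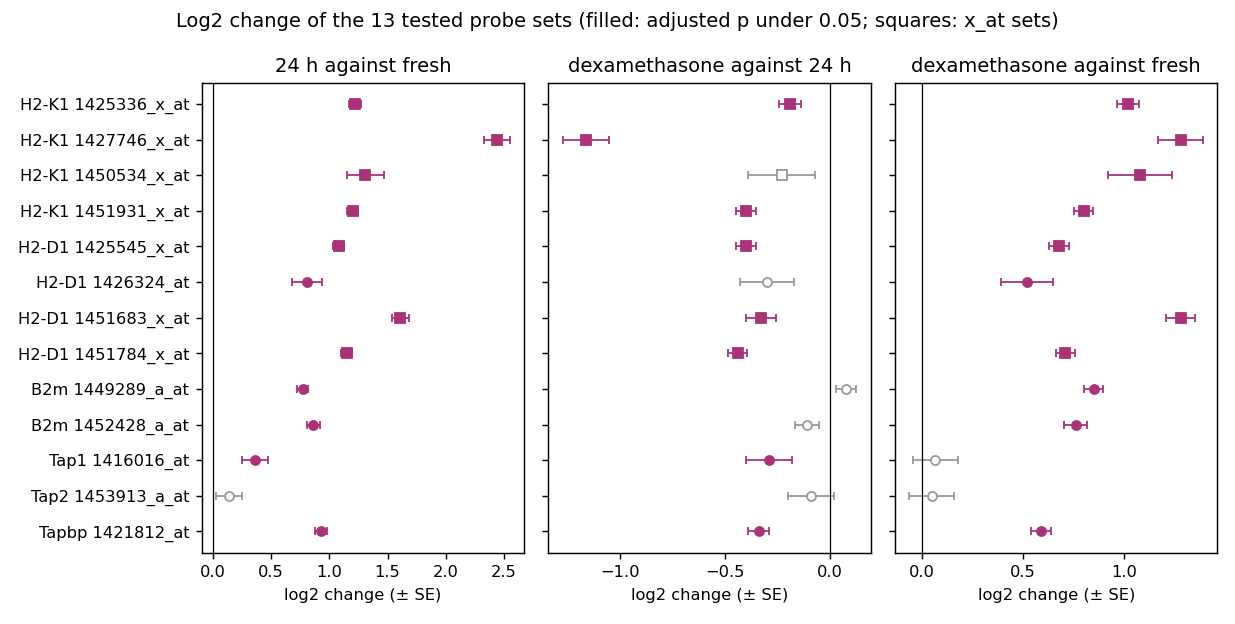
Log2 change with its SE of the 13 tested probe sets, in 3 comparisons (x axes differ in range). Filled symbols have an adjusted p under 0.05 and squares are x_at sets. At 24 h, 12 symbols are filled to the right of 0, and with dexamethasone 8 are filled to the left.

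Counted over the 13 tested probe sets, 12 were higher and none lower at 24 h, against 35.0% of all tested probe sets called higher and 40.1% lower. The median log2 change of the 13 was 1.1, and that of all tested probe sets was -0.05. All 13 differences were positive, from 0.14 to 2.44. The arrays of fresh and 24 h membrane did not overlap for 12 of the 13, and for 76.8% of all tested probe sets. With dexamethasone against 24 h, none was higher and 8 were lower, against 27.1% and 25.5% of all, with a median of -0.30 beside 0.01 for all. The 1 positive difference was the 0.076 of a B2m probe set. The arrays did not overlap for 10 of the 13, against 59.2% of all. In dexamethasone against fresh, 11 of the 13 were higher and none lower (37.8% of all were called higher), and the arrays of 11 did not overlap (77.9% of all). Of the 13, 7 are x_at or s_at sets, and the probe sets of 1 gene may share transcripts, so these counts are not of independent items.

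Other scalings shifted these counts with the whole array. Median centring raised the share of calls that were higher at 24 h from 46.6% to 75.7% and lowered it with dexamethasone from 51.5% to 28.9%, and scaling to hybridization controls gave 69.9% and 8.5%. For dexamethasone against fresh the share was 49.6%, 68.3% after median centring and 39.2% after scaling to controls. Under quantile normalization, median centring and control scaling alike, the brightest H2-K1, H2-D1 and Tapbp sets were called higher at 24 h and lower with dexamethasone. Scaling to the controls gave 14 of these genes' probe sets called lower with dexamethasone, among them a Tapbp set that is not tested on the authors' scale.

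Differences between 2 genes on the same array do not change when the array is multiplied by 1 factor, apart from the pseudocount, and median centring or control scaling moved them by at most 0.05. Quantile normalization, which is no single factor, moved them by up to 0.28 at 24 h and 0.16 with dexamethasone. By the probe set with the highest signal of each gene, H2-K1 rose more than B2m at 24 h by 0.44 ± 0.100 (log2, SE) and H2-D1 more than B2m by 0.31 ± 0.077, and B2m exceeded Tap1 by 0.42 ± 0.11 (0.21 after quantile normalization) and Tap2 by 0.63 ± 0.15. Arrays of fresh and 24 h membrane did not overlap in 13 of the 15 gene pairs, and each of these has an exact two-sided permutation p of 0.1, the smallest that this test can give for 3 arrays against 3. B2m against Tapbp (-0.16 ± 0.086) and Tap1 against Tap2 (0.22 ± 0.18) overlapped, each with an exact permutation p of 0.3.

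With dexamethasone against 24 h, 6 of the 15 pairs did not overlap (exact permutation p 0.1 each). B2m was higher relative to H2-D1 by 0.48 ± 0.059, to Tapbp by 0.42 ± 0.094 (0.26 after quantile normalization), to Tap1 by 0.37 ± 0.063 and to H2-K1 by 0.27 ± 0.094. H2-K1 was higher relative to H2-D1 by 0.21 ± 0.050 and to Tapbp by 0.15 ± 0.017. These last values rest on 1 probe set: with 1451931_x_at for H2-K1 the differences from H2-D1 and Tapbp were 0.01 and -0.06 and the arrays overlapped, and with 1427746_x_at they were -0.76 and -0.82. With the second B2m probe set, 1452428_a_at, B2m stood higher relative to H2-D1 by 0.30 and to Tapbp by 0.24, and the arrays overlapped for H2-K1 (0.09) and Tap1 (0.18). H2-D1 and Tapbp differed from each other by -0.06 ± 0.046, and their arrays overlapped (exact permutation p 0.3).

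**Figure D4:**
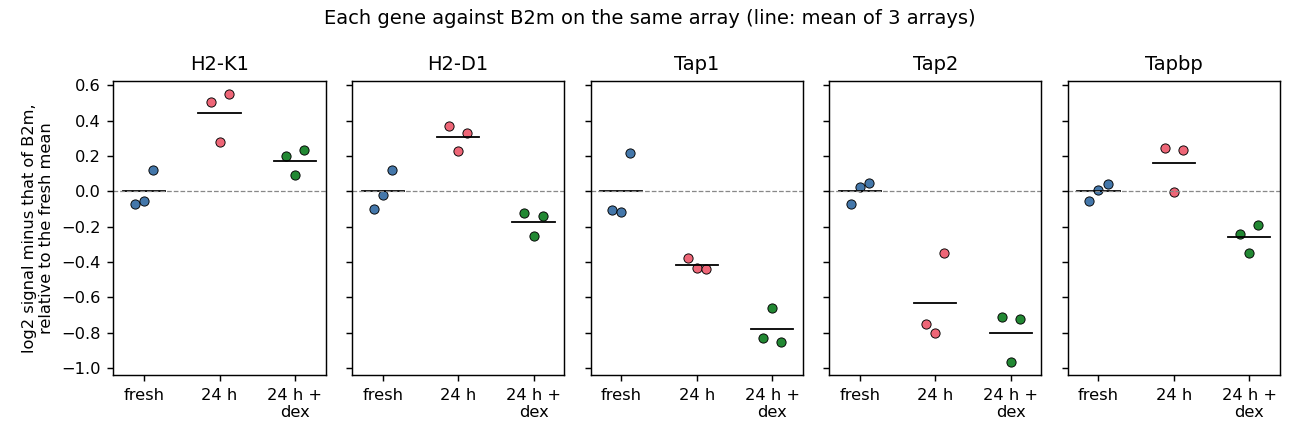
Log2(signal + 32) of 5 genes minus that of B2m on the same array, set to 0 at the fresh mean. Points are arrays and lines the means of 3. H2-K1 and H2-D1 lie above 0 after 24 h and lower again with dexamethasone, and Tap1 and Tap2 lie below 0 in both explant groups.

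Across the 9 arrays, H2-D1 and Tapbp had the most similar profiles among the 6 genes. After each gene was centred on its own mean, their root mean square difference was 0.079 on the log2 scale (Pearson r 0.99, 9 arrays). H2-K1 and H2-D1 differed by 0.148 (r 0.97) and Tap1 and Tap2 by 0.211 (r 0.12). These arrays fall into 3 groups, so the values describe the shared group pattern. Among 10242 tested genes, those nearest to the mean profile of the 6 were Pdcl3 (0.024), Mrps23 (0.036), Arfrp1 (0.036), Dlat (0.040) and Ndufb2 (0.044). The nearest single genes were Dnajc2 to H2-K1 (0.052), Itgb1 to H2-D1 (0.049), Cacybp to B2m (0.034), Phka2 to Tap1 (0.074), Bin1 to Tap2 (0.054) and Lurap1l to Tapbp (0.050).

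Of 21 class I and class I-like genes sought outside the 6, 10 had a probe set of 1 symbol, and most of these were low. The remaining entries, H2-Q7 and H2-T23 among them, had none and were not followed. Of the 10, 4 were tested, and at 24 h 2 fell and none rose. Over 10242 genes, each by its brightest probe set, 36.0% were called higher and 40.7% lower. Cd1d1, which presents lipids, averaged 725 in fresh membrane and was under 200 on all explant arrays, a fall of at least 3.62-fold (adjusted p 1.55e-10). Hfe, which regulates iron uptake, fell by 1.10 on the log2 scale (adjusted p 3.33e-06) and again with dexamethasone by 0.56 (adjusted p 0.0021). H2-Q2 averaged 379, 445 and 207 and H2-M3 168, 200.2 and 164. Neither passed the test at 24 h (adjusted p 0.187 and 0.313), though both were called higher under each of the 3 other scalings. With dexamethasone H2-Q2 fell by 1.00 (adjusted p 7.54e-05), and Cd1d1 was called higher (adjusted p 0.0125) with both group means under 200, a call that was lost under the 3 other scalings (adjusted p 0.0514, 0.0527 and 0.607).

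The genes listed as peptide loading partners, which include chaperones of wider use and a trimming enzyme, changed in both directions. Of 9 tested, 3 rose and 5 fell at 24 h (36.0% and 40.7% over all genes), with a median of -0.19. Erap1, the peptidase that trims peptides in the endoplasmic reticulum, rose by 1.04 (adjusted p 1.50e-07) and Bcap31, which handles newly made membrane proteins, by 0.40 (adjusted p 1.03e-05). The chaperones Hspa5 and Calr fell by 0.51 and 0.48 (adjusted p 3.68e-06 and 8.95e-06), but under median centring or control scaling neither passed the test and none of the 9 was called lower. With dexamethasone 4 of the 9 fell and none rose (over the 10242 genes, 28.7% lower and 22.3% higher). Among them Pdia3, the disulphide isomerase of the loading complex, fell by 0.58 (adjusted p 4.39e-06), Ganab by 0.37 (adjusted p 0.000647), Bcap31 by 0.17 (adjusted p 0.0122) and Uggt1 by 0.25 (adjusted p 0.0148). The call of Bcap31 was lost without 24 h array A (adjusted p 0.0514), and that of Uggt1 without 24 h array C or dexamethasone array B (0.0566 and 0.0612).

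Immunoproteasome genes make the proteasome subunits that interferon exchanges for the constitutive ones, and Psme1 encodes a subunit of its activator. All 4 tested fell with dexamethasone (28.7% of the 10242 genes were called lower), with a median of -0.61. They were called lower under every scaling, though control scaling left only 8.5% of all calls higher. Psmb8 averaged 191, 703 and 363, with a log2 change of 1.73 ± 0.12 at 24 h (adjusted p 3.49e-08) and -0.89 ± 0.12 with dexamethasone (adjusted p 5.52e-05). Psmb10 rose by 0.85 and fell by 0.56 (adjusted p 2.72e-05 and 0.00173), and Psme1 rose by 0.62 and fell by 0.44 (adjusted p 1.21e-06 and 9.26e-05). Psmb9 averaged 219.5, 230.4 and 133, a difference of 0.05 at 24 h that missed the threshold (adjusted p 0.708) and a fall of 0.66 with dexamethasone (adjusted p 0.000732), and under the 3 other scalings it was called higher at 24 h.

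On chromosome 17 the order is Psmb9, Tap1, Psmb8 and Tap2, with 225 bases between Psmb9 and Tap1, 969 between Tap1 and Psmb8, and 3024 between Psmb8 and Tap2. At 24 h these neighbours had log2 changes of 0.05, 0.36, 1.73 and 0.14, and with dexamethasone of -0.66, -0.29, -0.89 and -0.09. Psmb9 and Tap1 share a short intergenic stretch, and on the authors' scale their 24 h values stood on different sides of the test. Under the other scalings both were called higher at 24 h. Whether they differ from each other was not tested.

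Constitutive proteasome genes rose together at 24 h. All 6 tested were higher (36.0% over all genes), with a median of 0.92. They were led by Psmb7 (1.35, adjusted p 4.01e-10), Psmb5 (1.07, adjusted p 7.66e-10), Psme3 (1.37, adjusted p 9.47e-10) and Psmb6 (0.72, adjusted p 5.41e-08). With dexamethasone 3 of the 6 fell (28.7% over all genes), with a median of -0.17. All 6 were called lower under median centring or control scaling. Psme3 fell by 0.33 (adjusted p 0.00102), Psmb7 by 0.28 (adjusted p 0.00139) and Psmb5 by 0.20 (adjusted p 0.0045).

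**Figure D5:**
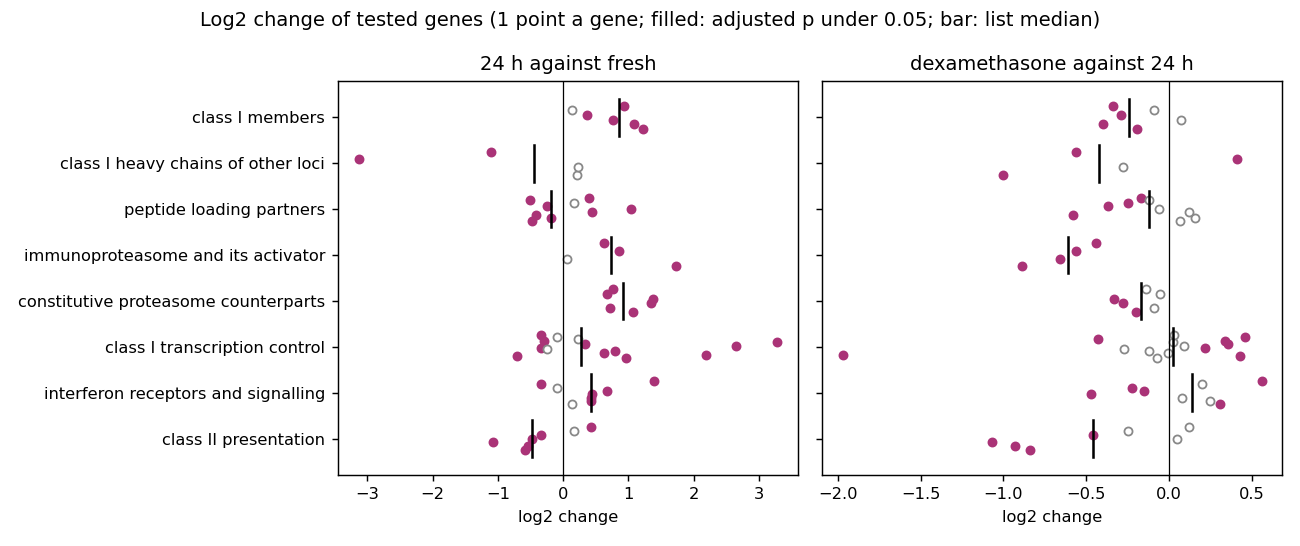
Log2 change at 24 h against fresh and with dexamethasone against 24 h, for the 6 class I genes and 7 lists of related genes. Each point is 1 tested gene, filled where its adjusted p is under 0.05, and bars are list medians. The immunoproteasome points lie above 0 at 24 h and all 4 below 0 with dexamethasone.

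Transcription factors known to act on class I promoters changed in both directions. Of 14 tested, 7 rose and 4 fell at 24 h (36.0% and 40.7% over all genes), with a median of 0.28, but under median centring or control scaling 9 rose and Irf2 alone was called lower. The NF-kB subunit genes Relb and Nfkb2 were under 200 on all fresh arrays and averaged 1188 and 1076 after 24 h, which is at least 5.94-fold and at least 5.38-fold higher (adjusted p 7.80e-12 and 2.72e-10). Of the interferon regulatory factor genes, Irf7 was at least 4.31-fold higher (adjusted p 5.20e-08) and Irf1 rose from 536 to 1070.0 (log2 change 0.96, adjusted p 1.62e-06), while Irf2 fell from 420.3 to 246 (-0.71, adjusted p 0.000114). Nlrc5, the class I transactivator, averaged 34.8, 48.6 and 42.3 and was not tested.

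With dexamethasone these factors differed from each other in their values. Irf7 went from 862 to 193, a log2 fall of 1.97 (adjusted p 8.92e-07) that was called under every scaling. Relb, Nfkb2 and Irf1 differed from 24 h by 0.02, 0.09 and -0.07 (adjusted p 0.855, 0.512 and 0.572), and with control scaling all 3 were called lower. Rela, Nfyb and Creb1 rose by 0.36, 0.46 and 0.34 (adjusted p 0.000296, 0.000451 and 0.00384), but under control scaling, which called 10 of the 14 lower and none higher, their differences were negative and not called. Median centring also ended the call of Creb1 (adjusted p 0.0866).

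Interferon receptor and signalling genes gave 5 higher and 1 lower of 8 tested at 24 h (36.0% and 40.7% over all genes), with a median of 0.43. Socs3, a feedback inhibitor of cytokine signalling, rose by 1.39 (adjusted p 3.44e-08), the kinase gene Jak1 by 0.67 (adjusted p 2.11e-07), and the type I interferon receptor genes Ifnar2 and Ifnar1 by 0.45 and 0.43 (adjusted p 4.31e-05 and 0.000193). With dexamethasone Ifnar2 fell by 0.47 (adjusted p 8.61e-05) and Jak2 by 0.22 (adjusted p 0.00285), while Socs3 rose by 0.56 (adjusted p 0.000383) and Ifngr1 by 0.31 (adjusted p 0.0256). The rises of Socs3 and Ifngr1 were not called under control scaling, and that of Ifngr1 was lost after median centring (adjusted p 0.176), without 24 h array A or B (0.112 and 0.0814) and without dexamethasone array A or B (0.0555 and 0.097). Ifnb1 and Ifng were the only interferon genes looked at, and both were low. Their group means were 30.3, 34.9 and 34.4 for Ifnb1 and 13.4, 8.7 and 2.2 for Ifng.

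Among class II presentation genes, which serve antigen-presenting cells, falls outnumbered rises in both comparisons. Of 7 tested, 5 fell and 1 rose at 24 h (40.7% and 36.0% over all genes), with a median of -0.48. Under median centring or control scaling, however, 1 fell and 2 rose. H2-Eb1 fell by 1.08 at 24 h (adjusted p 2.38e-07) and by 1.07 with dexamethasone (adjusted p 1.52e-06), from 1833 to 851 and 390. H2-Aa fell by 0.59 and 0.84 (adjusted p 0.000169 and 2.78e-05), Cd74 fell by 0.48 at 24 h (adjusted p 5.68e-05), and Ifi30, a lysosomal reductase gene, rose by 0.42 (adjusted p 3.76e-06). With dexamethasone 4 of the 7 fell and none rose (28.7% and 22.3% over all genes). Among them H2-Ab1 fell by 0.93 (adjusted p 0.000264) and H2-DMa by 0.46 (adjusted p 0.0123, and 0.0515 without dexamethasone array B). Ciita, the class II transactivator gene, averaged 45.8, 22.6 and 19.9.

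Leukocytes carry high class I levels, so their markers are given beside these results. Summed signals of 16 macrophage and leukocyte markers were 10015 to 10344 in fresh membrane, 10374 to 10500 after 24 h and 11023 to 11158 with dexamethasone. Of 13 tested, 8 rose and 3 fell at 24 h (36.0% and 40.7% over all genes). With dexamethasone 5 rose and 3 fell (22.3% and 28.7% over all genes). Csf1r averaged 2986, 1365 and 1859, Lyz2 1719, 1957 and 1437, and Cd68 130, 1647 and 1879. Ptprc averaged 827, 376 and 181 and Laptm5 1382, 405.5 and 654. The sums therefore hold changes in opposite directions and do not show that leukocyte content was steady. All 13 markers of T, NK and B cells found on the array were under 200 on every array, with Cd3e at 8.93, 16.9 and 11.4, and their summed signals were 647 to 730, 236 to 297 and 203 to 324. Of 8 endothelial markers 2 were tested, and the sums were 3347 to 3576, 1460 to 1531 and 1610 to 1903. The lower sums came largely from Kdr, which averaged 1916, 364 and 580, whereas Emcn averaged 986.5, 876 and 914. The part of cell makeup and of RNA quality in the class I values was not tested.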

How the data were processed

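Total RNA from pooled, dissected Reissner's membrane was amplified by repeated in vitro transcription and hybridized to Affymetrix mouse arrays, per the labels' protocols. The deposited values are linear signal intensities scaled by the authors over all probe sets to a target of 500, per the labels. The software that made them is not given in the sources used here. Gene symbols came from the platform annotation: 34945 probe sets have 1 symbol, 932 several and 9160 none, and 64 control probe sets were left out. Of 173 list entries, 152 matched a symbol.

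Signals were taken as log2(signal + 32), so changes of low signals are understated. Probe sets at 200 or more on at least 3 of 9 arrays were fitted with limma 3.58.1 in R 4.3.3 (1 mean per group over all 9 arrays, eBayes with trend) and adjusted by Benjamini-Hochberg in each comparison. The fit was tested on simulated data. The number of arrays limits the precision. A gene is represented by its tested probe set with the highest mean. Where all arrays of a group were under 200, a fold is given against 200, as at least that large. Named genes are the 6 members, up to 4 genes with the smallest adjusted p of each pathway list in each comparison and up to 3 genes with the highest signal of a cell type list. Cd3e, Ptprc, Laptm5, Lrp2, Msln, Upk3b, Wt1, Sgk1, Zbtb16, Mt1, Mt2, Irf2, Nlrc5, Ciita, Ifnb1, Ifng and the neighbour Psmb9 were also named after their values had been seen. The members and lists were chosen with earlier results of these data known. Promoters came from RefSeq (GRCm38.p6), which matched 5 of the 6 genes, and were aligned with Biopython 1.88. Alternatives were other scalings, pseudocounts, filters and variance models, fits on 2 groups, a replicate block, leaving out each array, and other choices of probe set. Differences between genes on 1 array under other scalings and probe sets, and the share of the rise by probe set, were added after seeing the data.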

Additional observations from a re-analysis of the deposited data

How the results depend on the processing

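Of the counts of called probe sets in the 3 comparisons, 101 values under the alternatives stayed within 1.5 times those reported. The exception was the scaling of arrays to their hybridization controls, which called 14 probe sets of the 6 genes with dexamethasone against 24 h, all lower, in place of 8. It moved the median of all tested probe sets by -0.469, and the cause of that shift was not tested. With no filter on low values, 2 probe sets of these genes were called lower at 24 h and 2 in dexamethasone against fresh. At 24 h and in dexamethasone against fresh, the brightest probe sets of H2-K1, H2-D1, B2m and Tapbp were called higher under every tested alternative. The second Tapbp set, 1450378_at, was not called in dexamethasone against fresh after quantile normalization (adjusted p 0.0647) or control scaling (adjusted p 0.61). With dexamethasone against 24 h, the brightest H2-K1 set changed by -0.68 to -0.16 (log2) and the brightest Tapbp set by -0.83 to -0.31. Both were called wherever tested. The H2-D1 change ranged from -0.89 to -0.30, the last from its probe set without a suffix (adjusted p 0.0706). Of the other H2-K1 sets, 1427746_x_at gave -1.16, and 1450534_x_at was not called (-0.23, adjusted p 0.232).

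The B2m change with dexamethasone against 24 h turned to -0.0802 after quantile normalization, -0.0839 after median centring, -0.415 after control scaling and -0.0152 as the mean of its probe sets. In dexamethasone against fresh, control scaling turned Tap1 to -0.0707 and Tap2 to -0.0932. Leaving out 1 array at a time gave Tap1 from -0.0163 to 0.148 and Tap2 from -0.00374 to 0.108 in dexamethasone against fresh, and Tap2 from -0.157 to 0.0323 with dexamethasone against 24 h. These Tap1 and Tap2 differences did not pass the test in the fit reported.

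Arrays of the same letter in different groups correlated at -0.0617 to 0.164 in their deviations from the group means, so the letters are taken as names. With the letter as a replicate block, Tap1 with dexamethasone against 24 h was -0.29 with an adjusted p of 0.0557, and with no filter on low values its adjusted p was 0.069. The block called 9811 probe sets in that comparison against 9936 without it.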
